A study of Homo sapiens with 6 samples.

Results

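ATP-dependent chromatin remodellers were examined through 54 rows of the deposited gene table, out of 57773, in HEK293 cells, a long-established line derived from human embryonic kidney. The rows were chosen by gene symbol: the CHD1 to CHD9 genes, every symbol of the SMARC A to E series, ARID1, ARID4 and ARID5 genes, INO80 and its lettered subunits, and ATRX, HELLS, BPTF, EP400, SRCAP, PBRM1, RSF1, the BAZ genes, RUVBL1, RUVBL2 and MTA1 to MTA3. Of these rows, 49 were genes and 5 were pseudogenes of SMARCE1. The rule reads gene symbols and uses no measured value, but it and the families below were chosen with earlier results of these data known. The study holds 3 libraries labelled as knockdown of TRDMT1 and 3 libraries labelled control, all from HEK293. TRDMT1 is a tRNA cytosine methyltransferase, also called DNMT2. The sources used here do not give how the knockdown was made, how long it lasted or what the control cells received.

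Remodellers use the energy of ATP to slide, evict or restructure nucleosomes. Each has a motor ATPase of the Snf2 type, and the motors fall into families (SWI/SNF, ISWI, CHD and INO80) that work in complexes with scaffold subunits and with subunits that read histone marks or DNA. SWI/SNF complexes, called BAF and PBAF in mammals, open regulatory regions, ISWI complexes space nucleosomes, NuRD couples a CHD motor to histone deacetylases, and the SRCAP and EP400 complexes exchange the histone variant H2A.Z into chromatin. ARID4 and ARID5 proteins share a DNA-binding domain with the BAF subunits ARID1A and ARID1B but are not remodeller subunits themselves.

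Library totals were 36455950, 36737468 and 40088993 counts for the knockdown label, against 26465603, 24776040 and 26802182 for the control label. TRDMT1 itself was counted 221, 225 and 245 times in the libraries labelled knockdown, against 99, 93 and 80 times in the libraries labelled control, so the targeted gene went against the labels (log2 fold change 0.61 ± 0.21, edgeR adjusted p = 0.0705). Every direction below is therefore that of the labels and not of a verified depletion. In bulk RNA, fewer cells expressing a gene and less RNA per cell cannot be told apart. All 6 listed marker genes of HEK293 were detected in every library, at a summed 92.4 to 98.6 RPKM (reads per kilobase of exon, scaled to the library total) under the knockdown label and 60.6 to 116 RPKM under the control label. Markers of other cell types summed to 4.11 to 4.67 RPKM under the knockdown label and to 0.57 to 4.91 RPKM under the control label, most of it COL1A1. Of the 7 such markers, HBB was at 0 counts in every library, and PTPRC and CD3E had 2 and 3 counts over all libraries. COL1A2, a fibroblast collagen, was listed at 0.39, 0.34 and 0.40 RPKM under the knockdown label, against 0 in every library under the control label. ALB and KRT5 were also higher in every library under the knockdown label, at 0.08 to 0.20 RPKM, against 0 to 0.07 RPKM under the control label, and the part of these markers in the results was not tested. The coefficient of variation between libraries was 5.43% in the knockdown-labelled group and 31.8% in the control-labelled group.

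Remodeller subunits were lower more often than higher in the libraries labelled knockdown. All 49 genes had enough counts to be tested, and 15 of them fell and 5 rose at an adjusted p under 0.05 (edgeR quasi-likelihood test, Benjamini-Hochberg over all 17805 genes tested). The calls covered 20 of the 49 subunits, 30.6% lower and 10.2% higher, against 24.0% of all tested genes in either direction, 14.7% lower and 9.29% higher. The genes that fell were BAZ1A, BAZ1B, BAZ2B, RSF1, SMARCA1 and SMARCA5 of the ISWI group, CHD1, CHD9 and MTA1, the INO80 subunit INO80D, the motors ATRX, HELLS and SMARCAD1, and the DNA-binding proteins ARID4A and ARID4B. The genes that rose were SRCAP, SMARCA2, SMARCC2, SMARCD1 and MTA2. The median log2 fold change (libraries labelled knockdown minus libraries labelled control) was -0.13 over the 49 subunits and -0.04 over all tested genes.

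A fall of at least 2-fold was called for 10 of the 49 subunits, and a rise of that size for SRCAP alone. Over all tested genes, 7.99% were called lower and 3.12% higher by at least 2-fold. The 2 groups did not overlap for 33 of the 49 subunits in CPM (counts scaled to the library size after TMM correction), against 49.9% of all tested genes, 19 with the libraries labelled knockdown below and 14 with them above. Over all tested genes, 26.0% stood below and 23.9% above without overlap. The remaining 29 tested genes were not called, and 13 of these also showed no overlap.

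**Figure D1:**
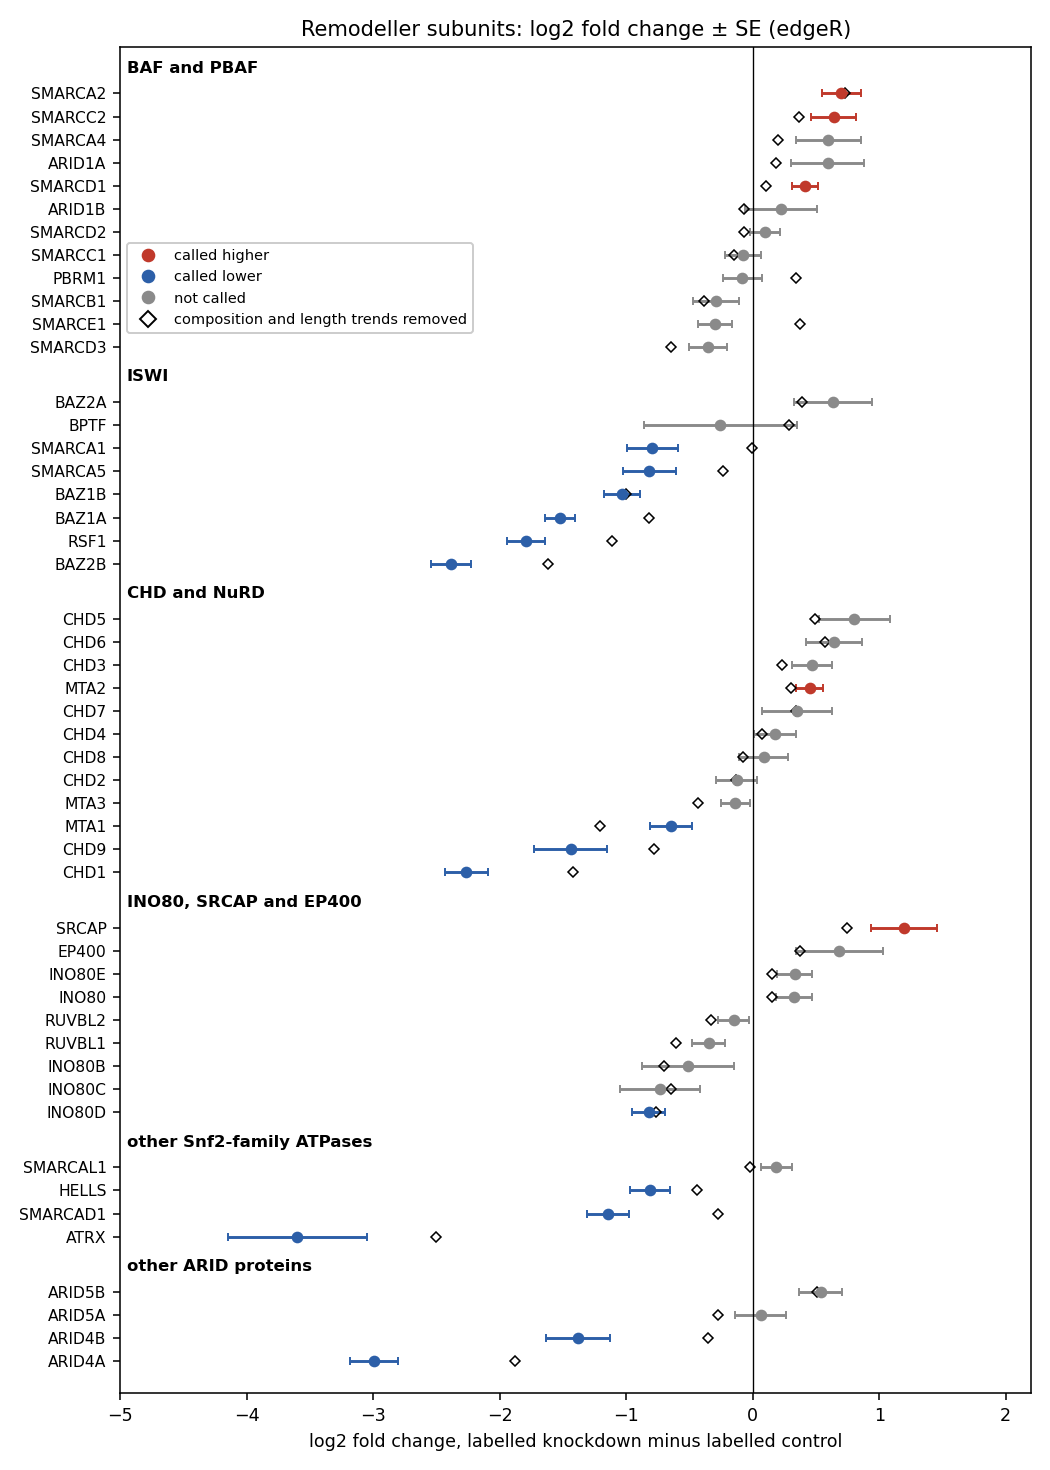
Log2 fold change of each of the 49 tested subunits, libraries labelled knockdown minus libraries labelled control, grouped by complex; filled circles with whiskers are edgeR estimates ± SE, coloured by call, and open diamonds are values fitted with composition and length trends taken out. ATRX and ARID4A lie farthest to the left and SRCAP farthest to the right, and most diamonds of the genes that fell lie closer to 0 than their circles.

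How far these calls rest on single libraries differed by direction. Of the 15 falls, 8 were called whichever of the 6 libraries was left out: ATRX, ARID4A, BAZ1A, BAZ1B, BAZ2B, CHD1, RSF1 and SMARCAD1. The other 7 (ARID4B, CHD9, HELLS, INO80D, MTA1, SMARCA1 and SMARCA5) lost their call in at least 1 of these fits. How often the falls of all tested genes stayed called in all 6 fits was not examined. The count of 8 therefore cannot be read as particular to these subunits. All 5 rises lost their call when any knockdown-labelled library was left out. Without knockdown replicate 1 there were 0 rises and 8 falls (1.87% and 5.12% of all genes), without replicate 2 there were 0 and 9 (1.94% and 5.43%), and without replicate 3 there were 0 and 8 (1.71% and 4.96%). Without control replicate 1 the rises were also lost, and 10 falls remained (3.64% and 7.32% of all genes higher and lower). Without control replicate 2 there were 14 rises and 17 falls, against 22.9% and 25.6% of all genes, and the added rises were ARID5A, ARID5B, CHD3, CHD5, CHD6, EP400, INO80E, SMARCA4 and SMARCAL1. Without control replicate 3 there were 11 rises and 16 falls (12.4% and 16.8%). Control replicate 2 was the lowest control library in 32 of the 49 subunits. Other tests gave 9 rises and 15 falls (DESeq2; 13.8% and 18.5% of all genes), 6 and 8 (limma-trend on log2(RPKM + 1); 12.9% and 8.58%) and 18 and 20 (voom with sample quality weights; 27.6% and 29.7%). Whether the 3 libraries under a label are separate cultures is not stated, and all p-values speak of the spread among these libraries, which can be technical.

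Most genes that fell shared a coding sequence rich in A and T at the third position of codons. In the longest open reading frame of each gene (GENCODE 29 transcripts), G or C filled the third position in less than 40% of codons in 12 of the 49 subunits, and all 12 fell, with a median log2 fold change of -1.48: SMARCA1, SMARCA5, BAZ1A, BAZ2B, RSF1, CHD1, CHD9, ATRX, HELLS, SMARCAD1, ARID4A and ARID4B. Among the other 37, BAZ1B, INO80D and MTA1 fell, 5 genes rose, and the median was 0.17. The bound of 40% was chosen after the values were seen. RSF1, at 39.6%, was the member just inside it, and MTA3, at 40.6%, the member just outside it. Over all tested protein-coding genes 49.5% of those under the same bound were called lower, against 9.18% of those at or above it. Called higher were 1.32% of those under the bound and 12.1% of those at or above it. The same tilt was thus seen across the table.

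The difference in composition can be read in the stretch that encodes the Walker B box, the ATP-hydrolysing motif that every one of these motors carries. The 8 motors printed here are genes that fell (CHD1, CHD9, SMARCA5), genes not called (CHD2, CHD8, SMARCA4, EP400) and SRCAP, which rose. SMARCA4 is of another family than SMARCA5, whose paralog SMARCA1 also fell. No stretch was taken for ATRX, CHD5, CHD6, CHD7 and SMARCAL1. Each line holds 48 bases of coding strand, 5′ to 3′, from GENCODE 29 transcripts on GRCh38, within a single coding exon, and capitals mark the 4 codons of the Walker B box.
CHD1: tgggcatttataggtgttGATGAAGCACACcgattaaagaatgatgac
CHD2: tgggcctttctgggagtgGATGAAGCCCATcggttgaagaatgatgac
CHD9: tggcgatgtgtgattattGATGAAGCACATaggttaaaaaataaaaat
CHD8: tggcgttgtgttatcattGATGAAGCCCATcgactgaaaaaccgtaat
SMARCA5: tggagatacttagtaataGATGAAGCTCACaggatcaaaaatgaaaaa
SMARCA4: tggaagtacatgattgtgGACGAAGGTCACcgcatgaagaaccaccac
SRCAP: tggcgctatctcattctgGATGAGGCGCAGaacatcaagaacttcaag
EP400: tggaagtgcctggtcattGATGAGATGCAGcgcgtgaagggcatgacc
The stretches lie at chr5:98893538-98893585 (exon 14, minus strand), chr15:92956480-92956527 (exon 16, plus strand), chr16:53242933-53242980 (exon 13, plus strand), chr14:21406892-21406939 (exon 13, minus strand), chr4:143527970-143528017 (exon 7, plus strand), chr19:11021731-11021778 (exon 22, plus strand), chr16:30713295-30713342 (exon 15, plus strand) and chr12:132013096-132013143 (exon 17, plus strand). Of the 16 codons, 4 ended in G or C in CHD1, 3 in CHD9 and 5 in SMARCA5. The number was 9 in CHD2, 13 in SMARCA4, 13 in SRCAP and 14 in EP400. Among motors not printed, it was 6 in SMARCA1, 7 in HELLS and 8 in SMARCAD1, which fell, 11 in SMARCA2, which rose, and 10, 12 and 10 in the uncalled CHD3, CHD4 and INO80, so the genes that fell and the others differed less than the printed examples show. CHD8, which was not called, had 5, so the stretch alone did not separate the genes that fell from the rest.

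Base composition of the whole transcript showed the same tilt. Tested genes were split into tertiles by G+C of the longest transcript. Among the 19 subunits in the lowest tertile (under 44.4%), 13 fell and SMARCA2 rose. In that tertile 31.8% of all tested genes were called lower and 3.02% higher. BAZ1B was the single call among the 14 subunits in the middle tertile, where 8.95% of genes were lower and 9.4% higher. Of the 16 subunits in the highest tertile (from 53.9%), 4 rose and MTA1 fell, against 15.9% and 3.48% of genes. Across the 49 subunits, which share the same 6 libraries, G+C and log2 fold change had a Pearson r of 0.64 and a Spearman rho of 0.62. Across 17302 tested genes the values were 0.38 and 0.40.

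**Figure D2:**
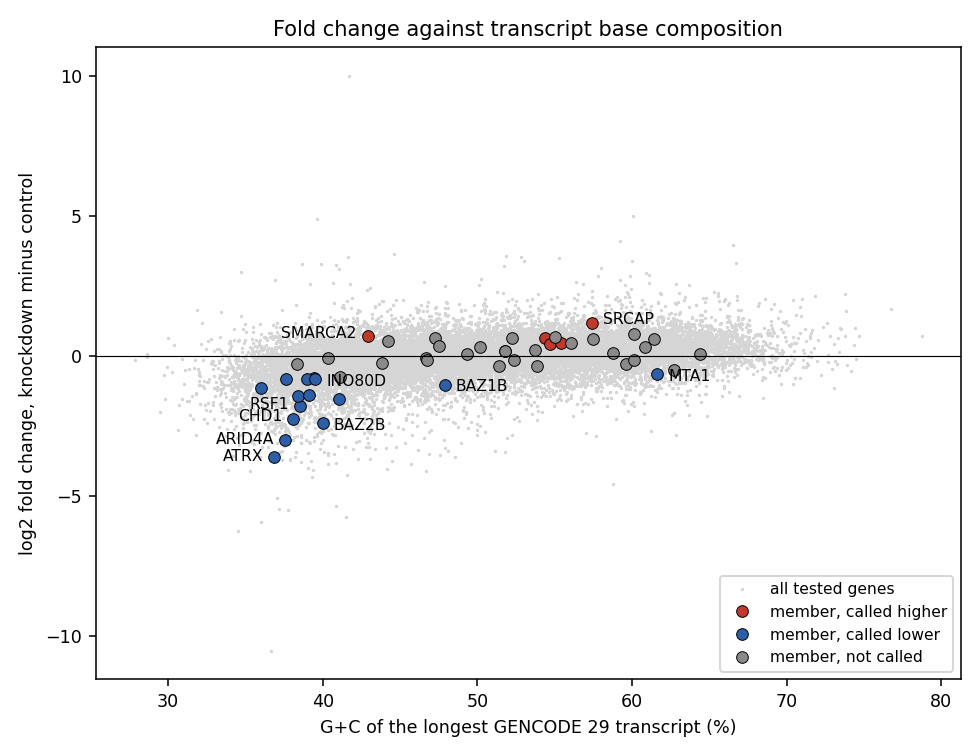
Log2 fold change, libraries labelled knockdown minus libraries labelled control, against the G+C percentage of the longest GENCODE 29 transcript, for all tested genes in grey and the 49 subunits in colour by call. The subunits that fell lie mostly under 44.4% G+C, with INO80D among them and BAZ1B and MTA1 to their right.

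Fits with composition and length trends taken out kept most of the large falls. Smooth terms of base percentages and exonic length were taken out of each library. After that, 11 of the 15 falls and 3 of the 5 rises were still called (edgeR). The share of calls kept among all genes was not examined. In that fit 12 of the 49 subunits were called lower and 5 higher, against 11.1% and 9.12% of all genes. The falls no longer called were those of SMARCA1, SMARCA5, SMARCAD1 and ARID4B, and the rises no longer called were those of SMARCD1 and MTA2. The estimate shrank for 14 of the 15 genes that fell and grew for MTA1. PBRM1 and CHD6 were then called higher and RUVBL1 lower. A relation to composition remained among the 49 subunits with trends removed, with a Pearson r of 0.36 and a Spearman rho of 0.32 for G+C. Across 17302 tested genes these were 0.006 and -0.02. The values for the subunits cover all 49 of them, and the relation among the falls still called was not tested. The labels' protocols include a bisulfite kit, which converts unmethylated cytosine, but do not state whether the counted reads came from treated RNA, and its part in these values was not tested.

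Among BAF and PBAF subunits, 3 of 12 rose (25.0%), none fell, and the median log2 fold change was 0.16. Of all tested genes, 9.29% were called higher and 14.7% lower. SMARCA2 (BRM), the alternative motor of BAF, had 126, 113 and 112 CPM in the libraries labelled knockdown, against 75.1, 58.7 and 81.7 CPM in those labelled control. Every knockdown-labelled library lay above every control-labelled library, a 1.63-fold rise (log2 fold change 0.70 ± 0.15, edgeR adjusted p = 0.0181) that was 0.73 ± 0.10 with composition and length trends removed. SMARCA2 was the only one of the subunits called higher in the lowest G+C tertile, and the median log2 fold change of its chromosome, 9, was 0.28 over 578 protein-coding genes.

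SMARCA4 (BRG1), the other BAF motor, was not called. It had 397, 383 and 413 CPM in the libraries labelled knockdown, against 294, 164 and 331 CPM in those labelled control (log2 fold change 0.60 ± 0.26, edgeR adjusted p = 0.131). The groups did not overlap, but control replicate 2 lay far below the other controls, and without it the difference was 0.35 with an adjusted p of 0.00621. The log2 ratio of SMARCA2 to SMARCA4 in RPKM + 1 was -1.11 ± 0.11 under the knockdown label and -1.12 ± 0.31 under the control label (SD, n = 3 each; exact two-sided permutation p = 0.9), so the balance of the 2 motors did not differ beyond its spread.

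The 2 other BAF subunits that rose are structural. SMARCC2 (BAF170), a scaffold on which the complex assembles, had 195, 180.1 and 194 CPM in the libraries labelled knockdown, against 115, 96.9 and 153 CPM in those labelled control (0.64 ± 0.18, edgeR adjusted p = 0.0423). Its partner SMARCC1 (BAF155) overlapped between groups and was at -0.08 ± 0.14. SMARCD1 (BAF60A), which links the complex to transcription factors, had 173, 167 and 167 CPM in the libraries labelled knockdown, against 126, 126 and 129 CPM in those labelled control (0.41 ± 0.10, edgeR adjusted p = 0.0281). Replicates of SMARCD1 lay close together in both groups, yet its value with trends removed was 0.11. The uncalled subunits SMARCB1, SMARCD2, SMARCD3, SMARCE1, ARID1A, ARID1B and PBRM1 had log2 fold changes between -0.35 and 0.59. PBRM1, the bromodomain subunit of PBAF, was at -0.08 ± 0.15 as fitted, at 0.34 and called higher with trends removed, and at -0.21 and called lower without control replicate 2. The 5 SMARCE1 pseudogenes summed to 9, 8 and 5 counts in the libraries labelled knockdown, against 7, 3 and 6 counts in those labelled control, and were not tested, and SMARCE1P2 and SMARCE1P4 were at 0 counts in every library. Reads of SMARCE1 shared with these copies could not be traced, so its value is less certain.

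ISWI subunits made up the group with the largest number of falls. Of 8 members, 6 fell (75.0%, against 14.7% of all tested genes) and none rose, with a median log2 fold change of -0.93. The motor SMARCA5 (SNF2H) had 86.8, 89.7 and 86.9 CPM in the libraries labelled knockdown, against 186, 107 and 172 CPM in those labelled control (-0.82 ± 0.21, edgeR adjusted p = 0.0317). Its paralog SMARCA1 (SNF2L) had 79.1, 79.0 and 74.9 CPM in the libraries labelled knockdown, against 116, 179 and 109 CPM in those labelled control (-0.80 ± 0.20, edgeR adjusted p = 0.0306). Control replicate 2 was the lowest control for SMARCA5 and the highest for SMARCA1. In deposited RPKM, which uses the plain library total, SMARCA5 overlapped between groups at 10.96 to 11.37 under the knockdown label and 10.32 to 22.14 under the control label. Both motors lost their call with trends removed (-0.23 and -0.01).

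The accessory ISWI subunits that fell had larger fitted falls than the motors, a difference that was not tested. BAZ2B, a bromodomain protein that can pair with ISWI motors, had 5.44, 6.22 and 6.32 CPM in the libraries labelled knockdown, against 29.5, 28.3 and 36.1 CPM in those labelled control. Its 5.22-fold fall (-2.38 ± 0.16, edgeR adjusted p = 0.000313) was the largest in the ISWI group. RSF1, which forms the RSF complex with SMARCA5, had 17.4, 19.2 and 18.2 CPM in the libraries labelled knockdown, against 52.8, 69.3 and 67.6 CPM in those labelled control. It was 3.46-fold lower (-1.79 ± 0.15, adjusted p = 0.000642) while the median of its chromosome, 11, was 0.31.

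BAZ1A (ACF1), the SMARCA5 partner in the nucleosome-spacing complexes ACF and CHRAC, had 55.0, 57.6 and 54.2 CPM in the libraries labelled knockdown, against 162, 145 and 172 CPM in those labelled control. The groups were well apart, 2.87-fold lower (-1.52 ± 0.12, edgeR adjusted p = 0.000506), on chromosome 14, whose median was -0.50. BAZ1B (WSTF), which pairs with SMARCA5 at replication sites, had 6.06, 5.79 and 5.61 CPM in the libraries labelled knockdown, against 12.4, 10.8 and 12.4 CPM in those labelled control. Its fall (-1.03 ± 0.14, edgeR adjusted p = 0.00412) was almost the same with trends removed (-0.999 ± 0.13), unlike the others of the group. BAZ2A (TIP5), which silences ribosomal DNA with SMARCA5, and BPTF, the histone-reading subunit of NURF, were not called. BPTF had 42.7, 39.2 and 39.5 CPM in the libraries labelled knockdown, against 40.9, 11.99 and 91.8 CPM in those labelled control, and with a 7.65-fold range among controls it was the most variable subunit there.

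**Figure D3:**
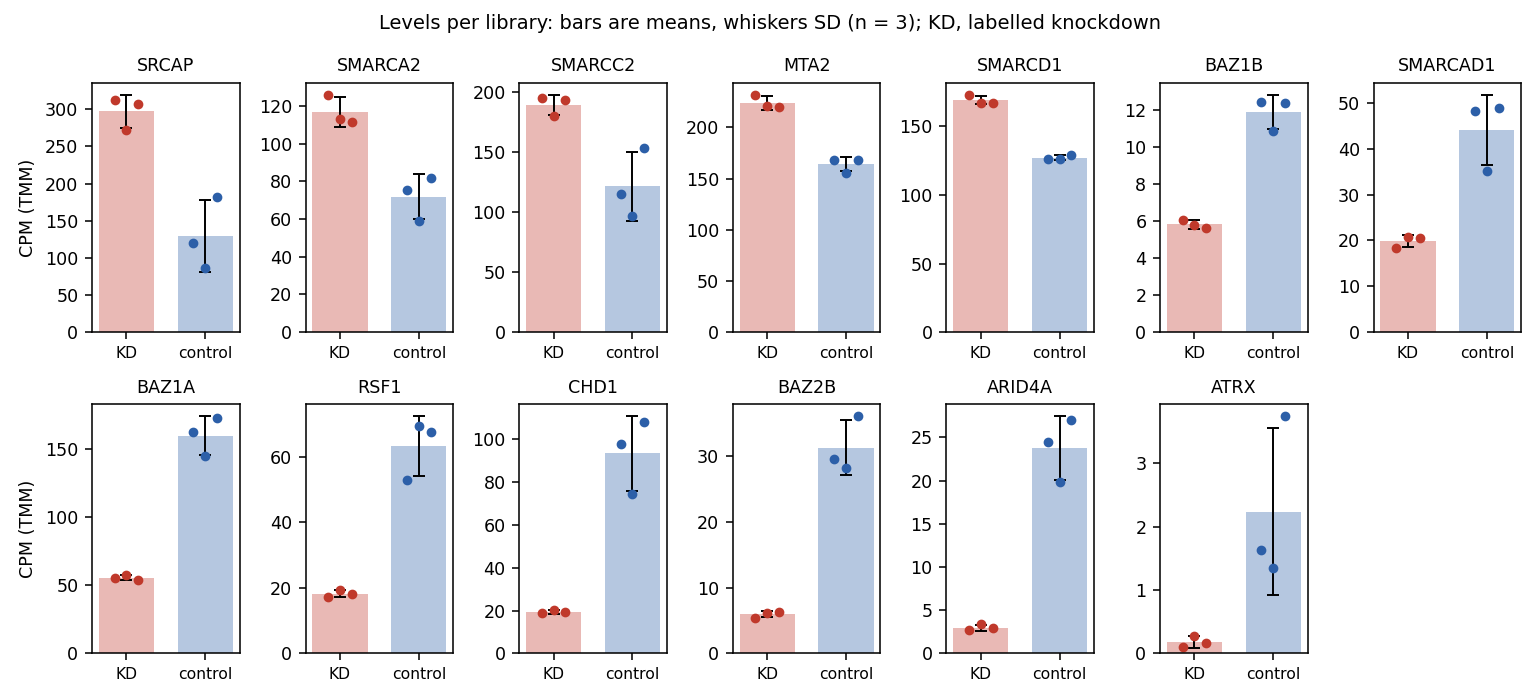
TMM-scaled CPM per library of the 5 genes that rose (SRCAP, SMARCA2, SMARCC2, MTA2 and SMARCD1) and the 8 that were called lower whichever library was left out; points are single libraries, bars means and whiskers SD of 3 libraries, with the libraries labelled knockdown (KD) to the left of those labelled control. No gene shown has overlapping groups, and the 3 knockdown-labelled points lie closer together than the control-labelled points in most panels.

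CHD motors and NuRD subunits had 1 rise and 3 falls among 12 (8.33% and 25.0%, against 9.29% and 14.7% of all tested genes). CHD1, which spaces nucleosomes on transcribed genes and binds methylated histone H3, had 18.7, 20.4 and 19.2 CPM in the libraries labelled knockdown, against 97.8, 74.2 and 108 CPM in those labelled control. This was a 4.80-fold fall (-2.26 ± 0.17, edgeR adjusted p = 0.000480), -1.42 ± 0.09 with trends removed and between -2.40 and -2.15 when any library was left out. Its closest relative CHD2 had 122, 103 and 106 CPM in the libraries labelled knockdown, against 98.4, 139.6 and 124 CPM in those labelled control (-0.13 ± 0.16, edgeR adjusted p = 0.579). In RPKM, CHD1 made up 23.7%, 28.7% and 26.9% of the summed CHD1 and CHD2 level in the libraries labelled knockdown, against 66.8%, 51.9% and 63.9% in those labelled control. The more abundant of the 2 genes per unit length was thus CHD2 in every knockdown-labelled library and CHD1 in every control-labelled library. This order depends on the exonic lengths used, 8801 bases for CHD1 and 17837 for CHD2. In CPM, which is not divided by length, CHD2 was above CHD1 in every library.

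CHD9, of the CHD6 to CHD9 group, fell 2.71-fold, with 8.19, 9.15 and 9.78 CPM in the libraries labelled knockdown, against 24.2, 15.1 and 34.2 CPM in those labelled control (-1.44 ± 0.29, edgeR adjusted p = 0.0144). It did so on chromosome 16, whose median was 0.53. CHD8, a repressor of β-catenin targets, was at 0.09 ± 0.19, and CHD7, the gene mutated in CHARGE syndrome, was at 0.35 ± 0.28. CHD6 had 69.5, 61.8 and 63.6 CPM in the libraries labelled knockdown, against 35.1, 32.7 and 56.9 CPM in those labelled control. It missed the threshold (0.64 ± 0.22, edgeR adjusted p = 0.0761), passed it with trends removed (adjusted p = 0.0151) and passed it without control replicate 2 (adjusted p = 0.0314).

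The NuRD motors were not called. CHD4 had 452, 418 and 437 CPM in the libraries labelled knockdown, against 413, 308 and 438 CPM in those labelled control (0.17 ± 0.17, edgeR adjusted p = 0.475), and the groups overlapped. CHD3 did not overlap, at 380.4, 359 and 369.9 CPM in the libraries labelled knockdown, against 267, 219.8 and 315 CPM in those labelled control (0.47 ± 0.16, edgeR adjusted p = 0.0742). CHD5, the neuronal paralog, was low at 3.00, 2.77 and 3.30 CPM in the libraries labelled knockdown, against 1.56, 1.19 and 2.40 CPM in those labelled control (0.80 ± 0.28, edgeR adjusted p = 0.0779). Without control replicate 2, CHD3 and CHD5 passed the threshold (adjusted p = 0.00832 and 0.0365).

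The MTA proteins, which hold the histone deacetylases in NuRD, split in direction. MTA2 had 232, 220.4 and 219.9 CPM in the libraries labelled knockdown, against 168, 156 and 168 CPM in those labelled control, a rise of 1.37-fold (0.45 ± 0.11, edgeR adjusted p = 0.0257) on chromosome 11, whose median was 0.31. MTA1 fell 1.57-fold, with 12.2, 13.5 and 14.4 CPM in the libraries labelled knockdown, against 18.0, 25.0 and 19.99 CPM in those labelled control (-0.65 ± 0.16, edgeR adjusted p = 0.0305). MTA1 lies on chromosome 14, whose median was -0.50, and relative to that median its difference was -0.15. At 61.6% G+C it was the only high-G+C subunit that fell, and with trends removed its value was -1.21 ± 0.26. MTA3 was not called (-0.14 ± 0.11).

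Among the INO80, SRCAP and EP400 subunits, 1 of 9 rose and 1 fell (11.1% each, against 9.29% and 14.7% of all tested genes). SRCAP, the motor that loads H2A.Z, had 313, 272 and 307 CPM in the libraries labelled knockdown, against 120.3, 86.7 and 183 CPM in those labelled control. Its 2.29-fold rise was the largest of all the subunits (1.20 ± 0.26, edgeR adjusted p = 0.0199) and stayed called with trends removed (0.74 ± 0.10), on chromosome 16, whose median was 0.53. When single libraries were left out the estimate ranged between 0.98 and 1.52 and the adjusted p reached 0.0871. EP400, the related motor of the TIP60 acetyltransferase complex, had 155, 136 and 149.9 CPM in the libraries labelled knockdown, against 96.9, 45.7 and 132 CPM in those labelled control (0.68 ± 0.34, edgeR adjusted p = 0.187). Without control replicate 2, EP400 was at 0.37 with an adjusted p of 0.0317.

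INO80, the motor that gives its complex the name, was at 0.32 ± 0.14 and was not called. INO80D, a subunit of the same complex, fell 1.77-fold, with 9.22, 9.89 and 9.57 CPM in the libraries labelled knockdown, against 15.7, 17.4 and 17.7 CPM in those labelled control (-0.82 ± 0.13, edgeR adjusted p = 0.00634). Its value with trends removed was -0.77 ± 0.17. INO80B, INO80C and INO80E were not called. INO80B and INO80C each had their highest value in control replicate 2, at 62.6 and 57.0 CPM. RUVBL1 and RUVBL2, AAA+ ATPases that form a ring shared by the INO80, SRCAP and EP400 complexes, were at -0.35 ± 0.13 and -0.15 ± 0.12. RUVBL1 was called lower with trends removed (-0.60, edgeR adjusted p = 0.00930) and without control replicate 2 (-0.44, adjusted p = 0.000691).

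Of the 4 remaining Snf2-type motors, 3 fell (75.0%, against 14.7% of all tested genes). ATRX, which with DAXX places histone H3.3 at telomeres and repeats, was counted 4, 11 and 7 times in the libraries labelled knockdown, against 43, 27 and 103 times in those labelled control. In CPM that was 0.104, 0.282 and 0.164 in the libraries labelled knockdown, against 1.63, 1.34 and 3.74 in those labelled control. The fall was the largest of all the subunits at 12.1-fold (-3.60 ± 0.55, edgeR adjusted p = 0.00586), but it rests on low counts, and it ranged between -4.02 and -3.01 when single libraries were left out. With trends removed it was -2.51 ± 0.45.

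HELLS (LSH), which supports DNA methylation of repeats, had 41.8, 48.3 and 46.5 CPM in the libraries labelled knockdown, against 94.0, 66.1 and 80.2 CPM in those labelled control (-0.81 ± 0.16, edgeR adjusted p = 0.0127). SMARCAD1, which maintains heterochromatin through replication, had 18.3, 20.9 and 20.6 CPM in the libraries labelled knockdown, against 48.1, 35.2 and 48.8 CPM in those labelled control (-1.15 ± 0.16, edgeR adjusted p = 0.00472). Both groups of values were clear of each other, but SMARCAD1 shrank to -0.28 and was no longer called with trends removed, while HELLS was at -0.44 ± 0.11 and stayed called. SMARCAL1, an annealing helicase at stalled replication forks, was at 0.19 ± 0.12 and was not called.

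The ARID4 genes fell and the ARID5 genes did not pass the test. ARID4A, an RB-binding subunit of SIN3 deacetylase complexes, had 2.67, 3.38 and 2.90 CPM in the libraries labelled knockdown, against 24.5, 19.8 and 27.0 CPM in those labelled control. It was 7.97-fold lower (-2.99 ± 0.19, edgeR adjusted p = 0.000283), and -1.88 ± 0.13 with trends removed, on chromosome 14 with its median of -0.50. ARID4B, its paralog in the same complexes, had 22.7, 26.4 and 27.0 CPM in the libraries labelled knockdown, against 76.8, 42.0 and 79.8 CPM in those labelled control (-1.38 ± 0.25, edgeR adjusted p = 0.0106). ARID5A and ARID5B, sequence-specific DNA-binding proteins, were at 0.06 ± 0.20 and 0.54 ± 0.17.

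Compared per unit length, the 20 motor ATPases covered a wide range on the deposited RPKM scale. CHD4 was the most abundant in both groups, at 62.0 ± 2.34 RPKM under the knockdown label and 49.5 ± 14.2 RPKM under the control label (SD, n = 3 each). CHD3 and SMARCA4 followed in the libraries labelled knockdown, at 40.3 ± 1.09 and 38.6 ± 1.51 RPKM, and these neighbours did not differ beyond their spread. SMARCA1, at 30.3 ± 4.48 RPKM, was the second most abundant in the libraries labelled control and the fifth in those labelled knockdown, at 20.1 ± 0.56 RPKM. The control-labelled values of SMARCA1, CHD3 (26.2 ± 7.48) and SMARCA4 (23.3 ± 9.91) lay within each other's spread.

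CHD1 changed its place most among the motors, ranking 17 of 20 under the knockdown label and 7 of 20 under the control label. SRCAP ranked 4 in the libraries labelled knockdown, at 24.8 ± 1.82 RPKM, and 8 in those labelled control, at 9.87 ± 4.61 RPKM. CHD9, CHD5 and ATRX were the lowest 3 in both groups. ATRX was at 0.0133 ± 0.00577 RPKM under the knockdown label, the lowest of the 20, and at 0.177 ± 0.117 RPKM under the control label, where CHD5 was within its spread at 0.17 RPKM. The summed level of the 20 motors was 293.9, 275.7 and 286.8 RPKM in the libraries labelled knockdown, against 252.5, 171.1 and 289.0 RPKM in those labelled control, and overlapped. CHD3 and CHD4 together made up 35.8 ± 0.05% of that sum under the knockdown label and 31.7 ± 1.29% under the control label.

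**Figure D4:**
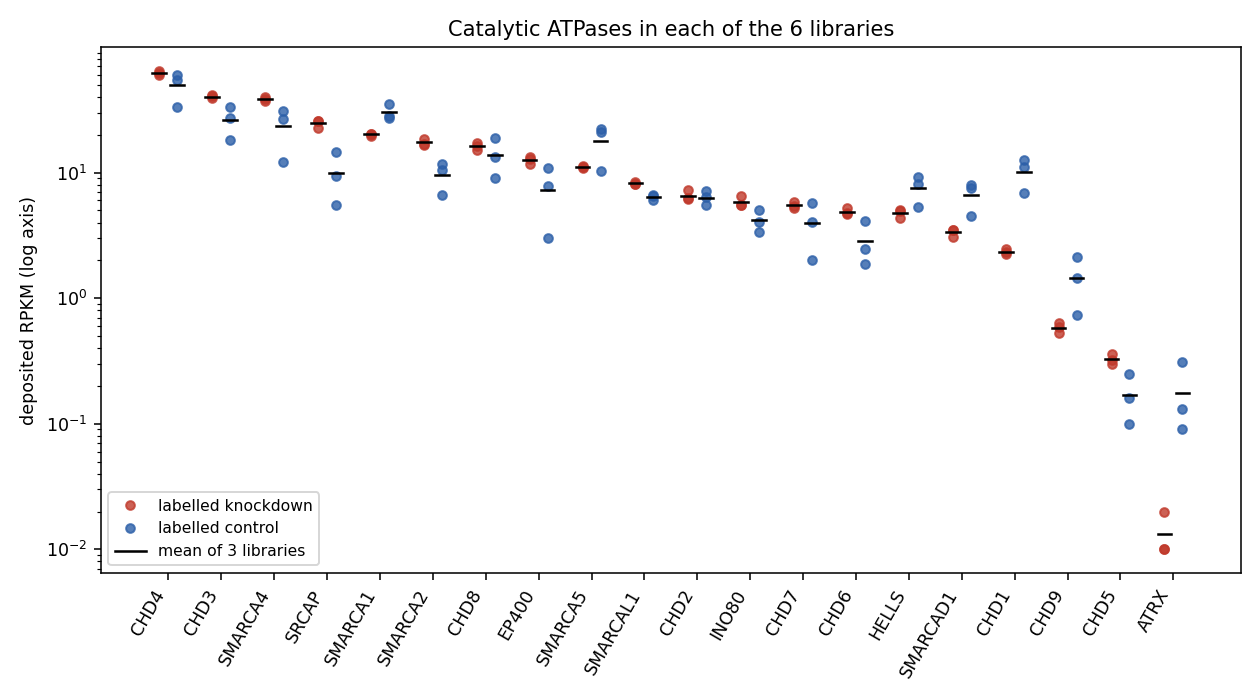
Deposited RPKM (log axis) of the 20 motor ATPases in each of the 6 libraries, ordered by the mean of the libraries labelled knockdown; points are libraries, red for those labelled knockdown and blue for those labelled control, and bars are means of 3. CHD4 leads both groups, ATRX is lowest under the knockdown label, and CHD1 shows a wide gap between the groups while CHD2 shows none.

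Related subunits were also compared by their ratio within each library. A constant of 1 RPKM was added to both, so ratios of low genes depend on that constant and on library scaling. Of 16 pairs compared on log2(RPKM + 1), 13 had no overlap between groups, each with an exact two-sided permutation p of 0.1, the smallest that 3 against 3 libraries can give (0.123 adjusted over the 16 pairs). The share without overlap among other gene pairs was not examined, so the count cannot be read as particular to related subunits. Among single tested genes, 49.9% had no overlap in CPM. The largest shifts were those of CHD1 over CHD2 (-1.75), BAZ2B over BAZ2A (-1.74) and MTA1 over MTA2 (-0.94), each lower in the libraries labelled knockdown. With 0.1 added in place of 1, the shift of BAZ2B over BAZ2A was -2.81 and that of ARID4A over ARID4B was -1.43, against -0.56. SMARCC1 over SMARCC2 shifted by -0.69, ARID1B over ARID1A by -0.41 and EP400 over SRCAP by -0.47. ARID1A made up 77.8%, 76.9% and 77.6% of the summed ARID1 level in the libraries labelled knockdown, against 71.4%, 73.3% and 73.4% in those labelled control, although neither ARID1 gene was called by itself. The 3 overlapping pairs were SMARCA2 over SMARCA4 (0.02), SMARCA1 over SMARCA5 (0.00) and RUVBL1 over RUVBL2 (-0.18).

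**Figure D5:**
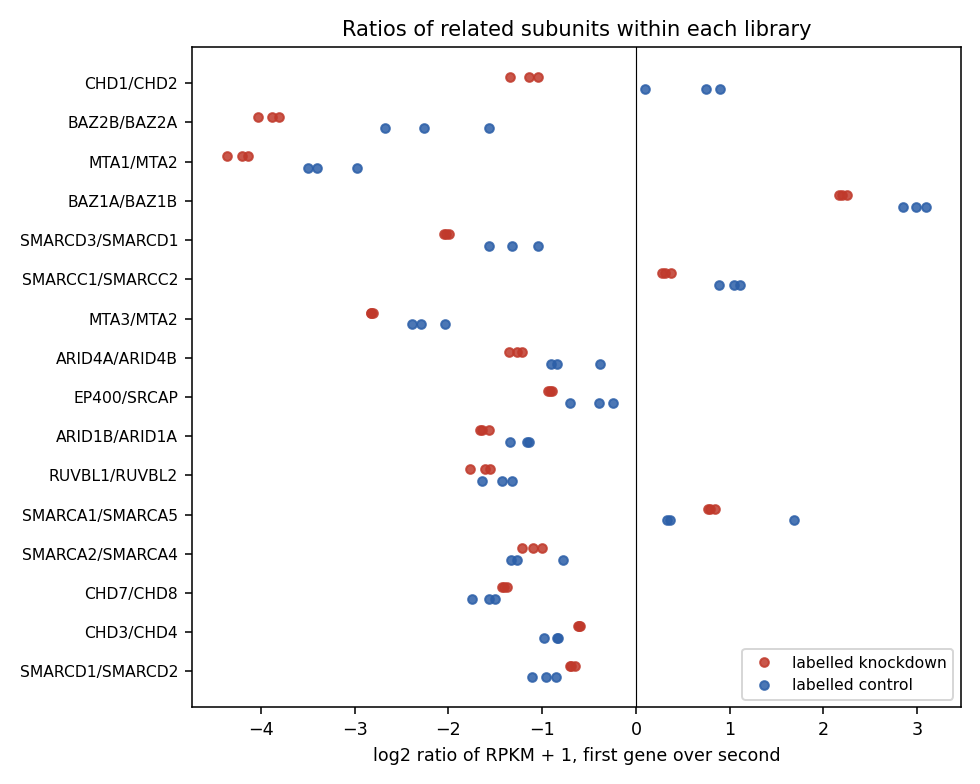
Log2 ratio of RPKM + 1 between related subunits within each library (first gene over second), ordered by the difference between groups; red points are the 3 libraries labelled knockdown and blue points the 3 labelled control. The ratios of CHD1 to CHD2 and BAZ2B to BAZ2A lie farther left in the libraries labelled knockdown, and the ratio of SMARCA1 to SMARCA5 spans the widest range among the controls.

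Among genes of the same complexes that the symbol rule does not cover, the share called was smaller, and the difference in shares was not tested. Of 65 such partners listed, 63 were tested, 3 rose and 6 fell (4.76% and 9.52%, against 9.29% and 14.7% of all tested genes), with a median log2 fold change of -0.09. HLTF, a Snf2-type helicase and ubiquitin ligase of stalled forks, had the largest fall, with 24.2, 27.8 and 28.0 CPM in the libraries labelled knockdown, against 88.1, 73.9 and 90.3 CPM in those labelled control (-1.66 ± 0.14, edgeR adjusted p = 0.000621). HDAC2, a deacetylase of NuRD, had 276, 263 and 258 CPM in the libraries labelled knockdown, against 587, 643 and 521 CPM in those labelled control (-1.14 ± 0.14, edgeR adjusted p = 0.00272). UCHL5, the deubiquitinase of the INO80 complex, ZRANB3, a fork-remodelling helicase, ACTR6, an actin-related protein of the SRCAP complex, and ACTL6A, an actin-related BAF subunit named after its values were seen, also fell. GLTSCR1L (0.89 ± 0.17) and DPF2 (0.59 ± 0.12) of BAF and NFRKB (0.75 ± 0.12) of INO80 rose. With trends removed HLTF was still called lower, and the falls of HDAC2 (adjusted p = 0.0510), UCHL5, ZRANB3, ACTR6 and ACTL6A were no longer called. GLTSCR1L and NFRKB were still called higher and DPF2 was not. EPC2, ERCC6, MBTD1 and YEATS4 were then called higher and YY1 lower, named after their values were seen. This made 6 rises and 2 falls among the 63, against 9.12% and 11.1% of all tested genes. Leaving out single libraries gave 0 to 9 rises and 2 to 18 falls, the most without control replicate 2. In that fit 22.9% of all genes were called higher and 25.6% lower.

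Promoter sequence was examined for 41 of the subunits that matched the RefSeq table (GRCh38.p14, 66 windows of 250 bases before to 50 after a start site). BAZ1A, CHD5, SMARCC2, CHD7, CHD6, BPTF, SMARCC1, ATRX and the 5 pseudogenes had no entry. Windows of genes that rose, of genes that fell and of uncalled genes had similar median G+C of 64.8%, 64.3% and 65.7% (8, 20 and 38 windows). The median over all 35116 windows in the table was 58.7%. Genes with several windows count more than once, and SMARCA2 gave 4 of the 8 windows of genes that rose. The low G+C of the transcripts that fell was not seen in the median of their available windows. The 4 windows printed belong to the genes with the 2 lowest and 2 highest log2 fold changes among called subunits with a single window. They run 5′ to 3′ on the gene's strand, and capitals mark exact matches, on either strand, to the letters of 4 common promoter elements. The first is the Sp1-type box, spelled GGGCGG. The second is the box bound by the factor NF-Y, spelled CCAAT. The remaining elements are the site of ETS-family factors, spelled CCGGAAGT, and the core element bound by TBP, spelled TATAAA.
ARID4A: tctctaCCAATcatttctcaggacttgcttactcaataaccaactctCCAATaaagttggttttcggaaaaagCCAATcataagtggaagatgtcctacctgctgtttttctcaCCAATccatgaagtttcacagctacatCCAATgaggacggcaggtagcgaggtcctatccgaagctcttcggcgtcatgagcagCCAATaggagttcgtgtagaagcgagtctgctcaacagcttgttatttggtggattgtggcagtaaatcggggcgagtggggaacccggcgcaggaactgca
CHD1: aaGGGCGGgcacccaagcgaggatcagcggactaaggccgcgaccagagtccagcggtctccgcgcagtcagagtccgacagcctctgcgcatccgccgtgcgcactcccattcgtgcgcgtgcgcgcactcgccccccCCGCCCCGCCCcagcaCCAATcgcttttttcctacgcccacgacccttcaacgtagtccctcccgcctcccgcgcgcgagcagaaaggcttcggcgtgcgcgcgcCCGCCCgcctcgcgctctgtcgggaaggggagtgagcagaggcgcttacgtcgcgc
SRCAP: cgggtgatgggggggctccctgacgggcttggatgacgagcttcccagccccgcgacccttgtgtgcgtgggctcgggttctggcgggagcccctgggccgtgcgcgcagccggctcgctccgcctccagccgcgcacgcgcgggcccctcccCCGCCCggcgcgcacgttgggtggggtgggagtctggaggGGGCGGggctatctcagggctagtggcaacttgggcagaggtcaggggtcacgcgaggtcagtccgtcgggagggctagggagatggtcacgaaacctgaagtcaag
SMARCD1: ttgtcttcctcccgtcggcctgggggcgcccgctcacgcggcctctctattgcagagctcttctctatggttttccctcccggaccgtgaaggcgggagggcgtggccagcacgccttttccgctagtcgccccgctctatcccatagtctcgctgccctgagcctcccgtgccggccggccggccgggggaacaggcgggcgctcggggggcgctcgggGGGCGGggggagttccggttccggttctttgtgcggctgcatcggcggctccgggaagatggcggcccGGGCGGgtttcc
These lie at chr14:58298305-58298604 (plus strand), chr5:98928958-98929257 (minus strand), chr16:30698921-30699220 (plus strand) and chr12:50085092-50085391 (plus strand). The ARID4A window held 6 CCAAT matches, 12 CpG and 48.0% G+C. The CHD1 window held 44 CpG at 70.7% G+C with 4 Sp1-type boxes, where adjoining matches overlap, and 1 CCAAT match. The SRCAP and SMARCD1 windows each held 2 Sp1-type boxes, with 30 and 35 CpG.

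An Sp1-type box was found in at least 1 window of 4 of 4 genes that rose, 10 of 13 that fell and 19 of 24 uncalled genes, and in 65.2% of the windows of these subunits against 45.0% of all windows. A CCAAT match was found in 0 of 4 genes that rose, 6 of 13 that fell and 9 of 24 uncalled genes, and in 27.3% of their windows against 34.6% of all windows. The ETS letters stood in 7.58% of these windows against 4.14% of all, and the TATA letters in 4.55% against 11.5%. These matches describe the letters of the windows and were not compared with any binding data.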

How the data were processed

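RNA of 6 HEK293 libraries was measured, 3 labelled TRDMT1 knockdown and 3 labelled control. The deposited values were read counts of each gene, left unnormalized by the authors, and RPKM that the authors computed from them. The deposited RPKM equalled counts scaled by exonic length and library total in 100% of values (within 0.006). Per the labels' protocols, ribosomal RNA was depleted, a bisulfite kit was used and stranded libraries were made; whether the counted reads came from bisulfite-treated RNA is not stated. Per the submitters' processing notes, build hg19, edgeR 3.4.6, DESeq 1.18.0, DESeq2 1.6.3, StringTie 1, HTSeq 0.6.1 and bcl2fastq 2.17.1.14 were named, without roles. The aligner, strand setting and annotation are not given in the sources used here, so reads of a gene and of an overlapping or antisense gene may not be told apart. Columns were tied to samples by the names in each sample's description, which read the other way round from the titles.

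The test on counts was that of edgeR 4.0.16 under R 4.3.3 (TMM, filterByExpr, robust quasi-likelihood F test) over 17805 genes with Benjamini-Hochberg adjustment and a threshold of 0.05. Log2 fold changes are libraries labelled knockdown minus libraries labelled control, ± SE. Ratios of related genes used log2(RPKM + 1) and exact permutation. Each library held 24776040 to 40088993 counts. On simulated data with 17805 genes, of which 100 were changed at each size, 2% of 1.5-fold and 48% of 2-fold changes were called, with 2 false calls. The simulation gave both groups the same spread, while the real groups had 5.43% and 31.8%. It also changed far fewer genes than the 24.0% called here, so these rates may not hold for the real comparison. No pair of libraries under the same label had identical counts within sampling noise, and pairs across the labels were not compared in this way.

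The rule for members reads symbols alone, but it and the lists (families, partners, pairs, markers) were chosen with earlier results of these data known. The named genes were TRDMT1, all 20 motors, up to 12 members with the largest called rise and fall, and up to 5 partners each way, with other members named to account for the set. Base composition came from the longest GENCODE 29 transcript, matched for 97.2% of tested genes and all 54 rows. Alternatives were other scalings and filters, DESeq2 1.42.0, limma-trend (limma 3.58.1) on log2(RPKM + 1) and log2(RPKM + 0.1), voom with quality weights, smooth composition and length offsets (mgcv 1.9.3), leaving out each library, and a replicate block.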

Additional observations from a re-analysis of the deposited data

How the results depend on the processing

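Members called higher and lower numbered 5 and 15 in the report. DESeq2 gave 9 and 15 (13.8% and 18.5% of all genes), and voom with sample quality weights 18 and 20 (27.6% and 29.7%). Limma-trend gave 6 and 8 on log2(RPKM + 1) (12.9% and 8.58%). On log2(RPKM + 0.1) it gave 5 and 9 (2021 and 1530 of 17805 genes). Leaving out single libraries gave 0 to 14 higher and 8 to 17 lower members (1.71% to 22.9% and 4.96% to 25.6% of all genes). Partner subunits, 3 higher and 6 lower in the report, came to 6 and 2 with composition and length trends removed, 4 and 3 or 4 and 2 by limma-trend on the 2 RPKM scales, and 11 and 18 by voom. With trends removed 9.12% of all genes were called higher and 11.1% lower, and the limma-trend and voom shares are those given above. Leaving out single libraries gave 0 to 9 higher and 2 to 18 lower partners, against the same shares of all genes as for members. The same replicate numbers in both groups did not pair the libraries (correlations of deviations -0.04, 0.06 and 0.00). A replicate block gave 3 members higher and 14 lower (1105 and 1871 of all genes), with 3 partners higher and 3 lower. The block with trends removed gave 3 and 11 members (790 and 1110 of all genes) with 2 and 1 partners. The other scaling and both other filters moved no count by over 1.5 times.

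Under at least 1 alternative, 14 of the 49 members changed sign, of which SMARCA1 alone was called in the report, and 2 ratios did so. SMARCA1, lower in the report, was at 0.036 with trends removed and the replicate block. CHD2 was at 0.052 and 0.059 by limma-trend on log2(RPKM + 1) and log2(RPKM + 0.1), and at 0.063 by voom. CHD8 was at -0.076 with trends removed, -0.071 with the block added, and between -0.061 and 0.31 when single libraries were left out. SMARCAL1 was at -0.021 and -0.012 with trends removed, without and with the block. When single libraries were left out, the difference in the ratio of SMARCA2 to SMARCA4 lay between -0.084 and 0.19, and that of SMARCA1 to SMARCA5 between -0.22 and 0.45. Over all alternatives BPTF lay between -0.71 and 0.60, PBRM1 between -0.21 and 0.35, SMARCE1 between -0.39 and 0.42, ARID1B between -0.071 and 0.51, ARID5A between -0.28 and 0.32, INO80B between -0.74 and 0.070, MTA3 between -0.44 and 0.042, RUVBL2 between -0.33 and 0.025, SMARCC1 between -0.16 and 0.10 and SMARCD2 between -0.070 and 0.28. The cause was not tested. Precision was limited by the spread of the controls and, for ATRX, by counts as low as 4.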
